A study of Mus musculus with 8 samples.

Results

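The hedgehog genes described here are *Ihh*, *Dhh*, *Ptch1*, *Gli1*, *Hhip*, *Scube1*, *Scube3*, *Cdon* and *Gas1*. These 9 genes were picked by symbol out of 27179 genes counted, and all 9 were among the 16658 genes whose counts were high enough to be tested. RNA was sequenced from whole uteri of 8 mice at postnatal day 10 (PD10), the period in which uterine glands form. The 4 control mice were *Ezh2* f/f, with both copies of *Ezh2* floxed and no Cre recombinase. In the 4 cKO mice the same floxed alleles were combined with *Amhr2*-Cre, which expresses the recombinase from *Amhr2*. EZH2 is the enzyme of polycomb repressive complex 2 that methylates histone H3 and keeps genes silent. *Amhr2*-Cre recombines in cells that derive from the mesenchyme of the Müllerian duct, and also in ovary and oviduct, so the uterine epithelium is not its target, and RNA of cells with and without Cre is mixed in each library.

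Hedgehog ligands are secreted proteins that bind the receptor Patched on neighbouring cells. Ligand binding releases Smoothened from inhibition by Patched, and GLI transcription factors then activate target genes, among them *Gli1*, *Ptch1* and *Hhip*. Their products feed back on the pathway, so the RNA level of these targets is commonly read as a measure of signaling. In the uterus, Indian hedgehog (*Ihh*) is made by the epithelium and its receptor and targets lie mainly in the stroma beneath. SCUBE proteins help to release lipid-modified ligand from cells, and CDON and GAS1 are coreceptors that present ligand to Patched.

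Libraries held 25287141 to 36685807 counts on genes, and 3 counts, the limit that a count of 0 allows, correspond to 0.0824 to 0.117 CPM (counts scaled to a common library size with edgeR's TMM factors), which covers counting error only. *Ezh2* itself was at 45.0 ± 8.70 CPM in the control mice and 36.8 ± 4.41 CPM in the cKO mice (mean ± SD, n = 4 per genotype), with overlapping libraries and an adjusted p of 0.247 by edgeR, so the whole-gene count does not separate the genotypes. The paper states that Cre targets only some exons of the floxed allele. It reports recombination and lower *Ezh2* mRNA in cKO uteri, with less EZH2 staining in stromal but not epithelial cells. Adipocyte markers stood out in cKO replicates 1, 2 and 3, with 75.1, 174.3 and 86.4 CPM summed over 8 genes. In cKO replicate 4 the sum was 4.66 CPM, slightly above the 2.30 to 4.25 CPM of the control libraries. All 6 fat markers tested were higher in cKO uteri at an unadjusted p under 0.05 and were called by DESeq2, and edgeR called *Adrb3*, an adrenergic receptor gene of adipocytes, with a log2 fold change of 1.34 (adjusted p = 0.00204). The other 5 had log2 fold changes of 4.11 to 6.07 with adjusted p-values of 0.0573 to 0.0765 in edgeR. *Adrb3* was at 2.10 CPM in cKO replicate 4 and 0.915 to 1.18 CPM in control libraries. Results on the hedgehog genes are given also from cKO replicate 4 alone. That library was not free of RNA seen less in controls, since of 7 skeletal muscle markers tested *Myh3*, *Actn3* and *Tnnt3* were called higher over the 4 cKO libraries, and *Myh3*, the embryonic muscle myosin, had 42 reads in cKO replicate 4 against 0 to 4 in controls. The 8 skeletal muscle markers summed to 48.9 to 81.4 CPM in control and 46.6 to 70.5 CPM in cKO libraries. This sum does not show that 5 of the 7 tested were higher at an unadjusted p under 0.05, against 11.4% of all genes tested in that direction. *Acta1* and *Ttn* had log2 fold changes of -0.13 and -0.36. The part of fat or muscle RNA in the results was not tested. A library here is a different mouse, and the labels give neither litter nor batch.

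RefSeq (GRCm38.p6) start sites were available for 8 of the 9 genes, *Gli1* being the exception. The promoter windows, from 250 bases before to 50 after the start site, are shown for the ligand that fell most, for a target that fell with it, and for a coreceptor that rose. All are 5′ to 3′ on the strand of the gene, and capitals mark CG dinucleotides. The *Ihh* window is chr1:74951623-74951922 on the minus strand, that of *Ptch1* is chr13:63565686-63565985 on the minus strand, and that of *Cdon* is chr9:35451826-35452125 on the plus strand. For *Ptch1* and *Cdon* this start lies inside the span of the GENCODE gene, which holds transcripts that start further upstream.
Ihh promoter: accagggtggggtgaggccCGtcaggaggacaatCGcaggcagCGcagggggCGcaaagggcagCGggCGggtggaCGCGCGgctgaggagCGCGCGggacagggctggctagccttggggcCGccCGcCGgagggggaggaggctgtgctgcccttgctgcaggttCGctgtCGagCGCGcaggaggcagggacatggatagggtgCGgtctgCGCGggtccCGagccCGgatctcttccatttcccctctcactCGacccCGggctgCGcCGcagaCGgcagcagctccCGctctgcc
Ptch1 promoter: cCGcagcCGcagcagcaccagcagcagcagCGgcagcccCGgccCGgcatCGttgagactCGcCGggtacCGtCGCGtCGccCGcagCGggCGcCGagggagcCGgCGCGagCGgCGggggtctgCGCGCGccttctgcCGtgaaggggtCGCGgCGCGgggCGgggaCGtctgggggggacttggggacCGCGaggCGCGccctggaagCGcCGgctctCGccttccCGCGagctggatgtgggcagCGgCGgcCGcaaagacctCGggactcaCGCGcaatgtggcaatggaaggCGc
Cdon promoter: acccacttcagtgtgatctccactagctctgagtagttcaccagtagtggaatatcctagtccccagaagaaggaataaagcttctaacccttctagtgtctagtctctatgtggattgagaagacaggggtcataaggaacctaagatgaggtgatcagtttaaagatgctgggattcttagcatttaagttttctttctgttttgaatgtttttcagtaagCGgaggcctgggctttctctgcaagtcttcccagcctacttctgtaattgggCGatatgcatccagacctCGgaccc
The *Ihh* window held 30 CG dinucleotides, that of *Ptch1* 47 and that of *Cdon* 3. Of the others, *Hhip* had 30, *Scube1* 32, *Scube3* 20, *Gas1* 17 and *Dhh* 12. The G and C content was 72.7% to 76.3% in the 4 windows of genes that fell and 44.7% to 62.3% in the 3 of genes that rose. Over all 32851 promoter windows of the table the median was 52.7%. The GLI binding sequence GACCACCCA was searched on both strands, and 0 of the 8 windows held it, against 0.253% of all windows. Its shorter core CCACCCA, which lies within the longer sequence, was likewise in 0 of the 8 windows and in 9.30% of all windows. These counts describe the letters of these windows only.

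In cKO uteri 5 of the 9 genes fell, 3 rose and 1 did not pass the test. The ligand gene *Ihh*, the feedback targets *Ptch1*, *Gli1* and *Hhip*, and the release factor *Scube1* were lower, each by more than 2-fold. *Scube3*, *Cdon* and *Gas1* were higher, each by less than 2-fold, and the ligand gene *Dhh* did not pass the test. Calls are adjusted p-values under 0.05 from edgeR's quasi-likelihood test over all 16658 genes. Of all genes tested, 5.34% were called, 2.71% lower and 2.62% higher in cKO uteri. With a change over 2-fold as a second condition 1.3% were called, 0.636% lower and 0.666% higher. The 9 genes were chosen with earlier results of these data known, so their share is not evidence about the pathway. For 8 of the 9 genes the cKO libraries lay entirely on one side of the control libraries, as they did for 12.3% of all genes tested (6.43% below and 5.9% above). With cKO replicate 4 as the only cKO library, the 8 genes kept their direction. That fit holds no spread between cKO mice, so it is read by its fold changes only.

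**Figure D1:**
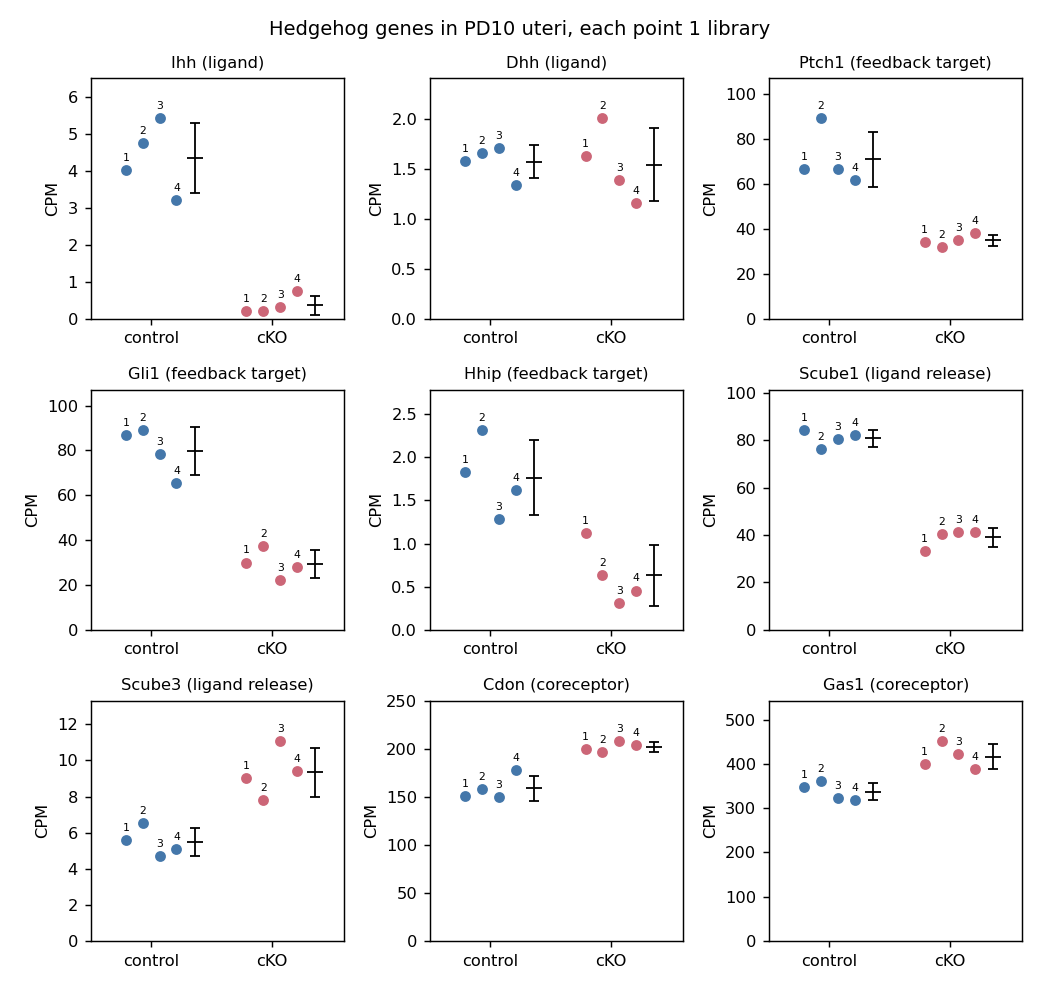
Expression of the 9 hedgehog genes in CPM (y axes, linear from 0) in control and cKO uteri. Each point is a library with its replicate number, and bars give mean ± SD over 4 libraries. The genotypes overlap in *Dhh* and are apart in the other 8 genes, with *Ihh* at most 0.736 CPM in cKO against at least 3.21 CPM in control libraries.

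*Ihh* (Entrez 16147, chromosome 1 of GRCm38 from 74945315 to 74951672, minus strand), the main hedgehog ligand of the uterine epithelium, was at 4.04, 4.76, 5.42 and 3.21 CPM in control replicates 1 to 4. The 4 cKO replicates, in the same order, held 0.194, 0.201, 0.308 and 0.736 CPM, from 5, 6, 10 and 21 reads. The cKO mean was 8.25% of the control mean, and the highest cKO library, the one with the lowest adipocyte marker sum, was still below every control library. On the log2 scale this was a change of -3.58 ± 0.34 (± standard error, edgeR adjusted p = 0.000105), the 6th lowest of all genes tested. It was -4.17 without cKO replicate 4 and -2.55 with cKO replicate 4 as the only cKO library (adjusted p = 0.0470 in edgeR, where the spread came from the control libraries).

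*Dhh* (Entrez 13363, chromosome 15 from 98891152 to 98898540), desert hedgehog, is known from Schwann cells, endothelium and the gonads. Control replicates 1 to 4 had 1.58, 1.66, 1.71 and 1.35 CPM of *Dhh* and cKO replicates 1 to 4 had 1.63, 2.01, 1.39 and 1.16 CPM. The groups overlapped completely, and the spread was wider in cKO uteri. The log2 fold change was -0.02, with a 95% interval from -0.48 to 0.44 and an adjusted p of 0.965 in edgeR. With only cKO replicate 4 it was -0.44, and with the mean log2(CPM + 0.1) of the 6 fat markers tested as a covariate -0.51 (adjusted p = 0.814 in edgeR). A change of 2-fold in either direction lies outside the 95% interval over all libraries, which rests on 33 to 60 reads per library. *Dhh* shares 546 exon bases with *Rhebl1* on the same strand and 1107 with an antisense transcript in GENCODE M21, and the strand setting of the counting is not given in the sources used here. Sonic hedgehog (*Shh*), the third ligand gene of mammals, had 0 reads in each of the 8 libraries, below the limit given above. Among the other members, *Gli1* shares 62 and 265 exon bases with genes on the opposite strand, *Hhip* 175, *Scube3* 198 and *Gas1* 589.

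*Gli1* (Entrez 14632, chromosome 10 from 127329882 to 127341974) encodes the GLI factor that is itself switched on by the pathway. It was at 86.8, 89.3, 78.2 and 65.6 CPM in control replicates 1 to 4 and at 30.0, 37.5, 22.4 and 28.0 CPM in cKO replicates 1 to 4. The lowest control library thus had more than the highest cKO library by a wide margin, with a cKO mean of 36.8% of control. The fitted change was -1.44 ± 0.15 in log2 units (± standard error, edgeR adjusted p = 0.000493). With cKO replicate 4 as the only cKO library it was -1.51.

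*Ptch1* (Entrez 19206, chromosome 13 from 63508328 to 63573598), the receptor that the pathway induces as its own brake, was at 66.3, 88.9, 66.5 and 61.5 CPM in control replicates 1 to 4. The cKO replicates 1 to 4 had 33.9, 31.9, 35.1 and 38.0 CPM. Control replicate 2 stood above the other controls, and the cKO libraries were close to each other, with a coefficient of variation of 7.36%. Fitted by edgeR, the change was -1.03 ± 0.11 on the log2 scale (± standard error, adjusted p = 0.000249). With only cKO replicate 4 it was -0.89.

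*Hhip* (Entrez 15245, chromosome 8 from 79965851 to 80058006), whose product binds ligand at the cell surface and takes it away from Patched, was the least abundant of the targets. Control replicates 1 to 4 had 1.83, 2.32, 1.28 and 1.62 CPM and cKO replicates 1 to 4 had 1.13, 0.636, 0.308 and 0.455 CPM. The genotypes came close, with cKO replicate 1 only slightly under control replicate 3. On the log2 scale this was a change of -1.5 ± 0.34 (± standard error, edgeR adjusted p = 0.0237). The adjusted p was 0.0703 without control replicate 1, 0.0643 without cKO replicate 2 and 0.0620 without cKO replicate 3. From cKO replicate 4 alone the log2 fold change was -1.94.

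The release factors went in opposite directions. *Scube1* (Entrez 64706, chromosome 15 from 83604999 to 83725021) was at 84.4, 76.1, 80.3 and 82.3 CPM in control replicates 1 to 4 and at 33.2, 40.4, 41.1 and 41.3 CPM in cKO replicates 1 to 4. Among the genes that fell it varied least between control libraries, with a coefficient of variation of 4.42%. The fitted change was -1.05 ± 0.07 in log2 units (± standard error, edgeR adjusted p = 1.36e-05), the 4th smallest p-value of all genes tested. From cKO replicate 4 alone it was -0.97.

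*Scube3* (Entrez 268935, chromosome 17 from 28142141 to 28174854), which is less abundant, was at 5.58, 6.54, 4.71 and 5.11 CPM in control replicates 1 to 4 and at 9.01, 7.83, 11.1 and 9.42 CPM in cKO replicates 1 to 4. Fitted by edgeR, the change was 0.77 ± 0.14 on the log2 scale (± standard error, adjusted p = 0.00647). With only cKO replicate 4 it was 0.78. The count ratio of *Scube1* to *Scube3* went from 11.6 to 17.1 in control libraries and from 3.69 to 5.15 in cKO libraries. The difference of the log2 ratio was -1.82, which is given as a description, since both genes were already apart between the genotypes in opposite directions. *Scube2*, the remaining member of the family, had 36.6 ± 5.83 CPM in the control mice and 42.3 ± 3.23 CPM in the cKO mice (mean ± SD, n = 4 per genotype), with an adjusted p of 0.266 in edgeR.

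The coreceptor genes *Cdon* and *Gas1* rose. *Cdon* (Entrez 57810, chromosome 9 from 35421128 to 35507652), an immunoglobulin-family coreceptor, was at 150.7, 157.9, 150.3 and 177.8 CPM in control replicates 1 to 4. The 4 cKO replicates, in the same order, held 199.9, 196.6, 208.7 and 204.0 CPM, all above the highest control library. On the log2 scale this was a change of 0.35 ± 0.06 (± standard error, edgeR adjusted p = 0.00655).

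*Gas1* (Entrez 14451, chromosome 13 from 60174405 to 60177365), a membrane-anchored coreceptor, was at 346.8, 360.9, 323.0 and 319.3 CPM in control replicates 1 to 4. The 4 cKO replicates had 399.3, 452.2, 422.3 and 389.0 CPM, which is 0.30 ± 0.06 on the log2 scale (± standard error, edgeR adjusted p = 0.0182). The adjusted p was 0.0576 without control replicate 4, 0.0593 without cKO replicate 2 and 0.0526 without cKO replicate 3. From cKO replicate 4 alone the log2 fold changes of *Cdon* and *Gas1* were 0.36 and 0.21. *Boc*, a coreceptor related to *Cdon*, was at 46.8 ± 4.27 CPM in the control mice and 55.7 ± 3.42 CPM in the cKO mice (mean ± SD, n = 4 per genotype), with an adjusted p of 0.0681 in edgeR, and DESeq2 called it higher. Other genes for cell-surface proteins that bind ligand, *Gpc3* and *Lrp2*, were not called by edgeR. The glypican gene *Gpc3* was at 110.9 ± 7.46 CPM in the control mice and 91.5 ± 9.09 CPM in the cKO mice (mean ± SD, n = 4 per genotype), lower in every cKO library than in every control library, with an adjusted p of 0.0511 in edgeR, and DESeq2 called it lower. The log2 fold change of *Lrp2*, an endocytic receptor gene, was 0.06 (adjusted p = 0.944 in edgeR). Its 95% interval went from -0.74 to 0.86, so its direction was not resolved.

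Fewer cells of a type and less RNA per cell cannot be told apart in whole-uterus RNA, so the members were also read against marker genes within each library. Epithelial markers (16 genes, among them *Epcam*, *Cdh1* and *Krt8*) summed to 1561 to 1835 CPM in control and 1709 to 2107 CPM in cKO libraries, and 0 of the 16 were called in edgeR. At an unadjusted p under 0.05 the count was 4 of 16, all higher in cKO uteri, against 11.4% of all genes tested in that direction and 21.2% in either direction. The log2 fold change was above 0 in 15 of the 16, with a median of 0.12, against 0.00044 over all genes tested. DESeq2 called 2 of 16, both higher, against 9.06% of all genes in either direction. The ratio of *Ihh* to the summed epithelial counts was 14.7-fold lower in cKO uteri, a difference of -3.88 on the log2 scale (exact permutation test, two-sided p = 0.0286, adjusted p = 0.0343 over 6 ratios), and p = 0.0286 is the smallest value that 4 mice against 4 allow. *Ihh* was already apart between the genotypes by more than the epithelial sums varied, which fixed this p, so the ratio is given as a description. Read against the mean log2 CPM of the same markers in place of their sum, on the scale of log2(CPM + 0.1), the difference was -3.52. Gland genes were lower beside *Ihh*. *Foxa2*, a transcription factor of the glands, fell from 2.04 ± 0.287 to 0.272 ± 0.126 CPM and *Cxcl15*, a gland chemokine, from 4.24 ± 1.5 to 0.292 ± 0.212 CPM (mean ± SD, n = 4 per genotype). The 5 gland markers summed to 4.06 to 8.20 CPM in control and 0.216 to 0.904 CPM in cKO libraries, *Prss29* and *Spink1* were at 0 in all libraries, and *Wfdc3* had at most 7 reads. With only cKO replicate 4 *Foxa2* had a log2 fold change of -2.39 and *Cxcl15* of -4.29. The part of gland cells in the difference of *Ihh* was not tested.

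Stromal markers (12 genes) summed to 10784 to 14013 CPM in control and 12812 to 16302 CPM in cKO libraries, where cKO replicate 4, with the lowest adipocyte marker sum, was lowest and within the control range. *Col3a1*, itself called higher, made up the largest part of this sum, at 6287 ± 616 CPM in the control mice and 8063 ± 913 CPM in the cKO mice (mean ± SD, n = 4 per genotype). Of these genes *Postn* and *Col3a1* were higher and *Hoxa10*, *Hoxa11* and *Thy1* were lower in cKO uteri, and *Vim*, *Pdgfra* and *Pdgfrb* were not called, so the list did not move together. Read against the summed stromal counts, *Gli1* and *Ptch1* were lower, with differences of -1.75 and -1.31 in the log2 ratio (exact permutation test, two-sided p = 0.0286 for each, adjusted p = 0.0343). Both genes were already apart between the genotypes by more than the stromal sums varied, so these ratios too are given as a description. Read against the mean log2 CPM of the markers, where *Col3a1* weighs as much as any other, the differences were -1.49 and -1.05 on the scale of log2(CPM + 0.1). The ratio of *Gli1* to *Ptch1* had a mean log2 of 0.18 ± 0.17 in control and -0.26 ± 0.38 in cKO libraries (mean ± SD, n = 4 per genotype), and the genotypes overlapped (exact permutation test, two-sided p = 0.0857, adjusted p = 0.0857). Without cKO replicate 2 this p was 0.0286 (exact permutation), so whether *Gli1* fell more than *Ptch1* was not resolved. *Ihh* fell more than *Gli1*, with a difference of -2.26 in their log2 ratio (exact permutation test, two-sided p = 0.0286, adjusted p = 0.0343), and p was 0.0571 when any 1 control library was left out. In cKO replicate 4, where *Ihh* was highest among cKO libraries, *Gli1* was not, and *Ptch1* was.

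**Figure D2:**
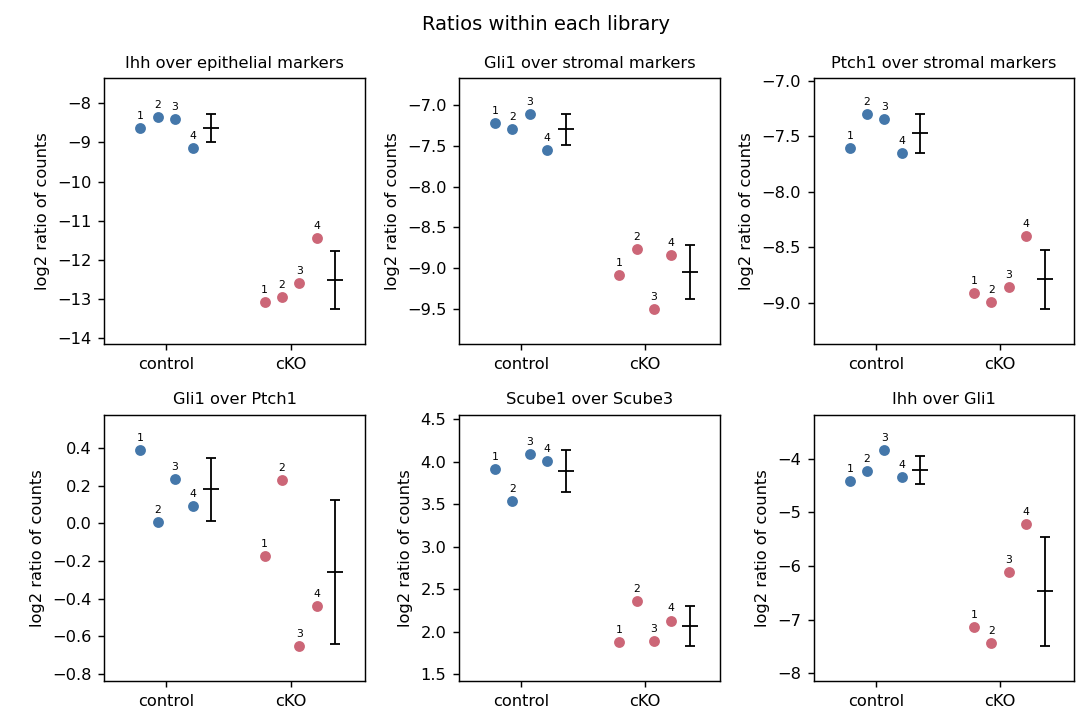
Log2 ratios of read counts within each library (y axes, each with its own range) for 6 pairs of quantities in control and cKO uteri. Points are libraries with their replicate numbers and bars give mean ± SD over 4 libraries. The genotypes are apart in 5 of the 6 ratios and overlap in *Gli1* over *Ptch1*.

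**Figure D3:**
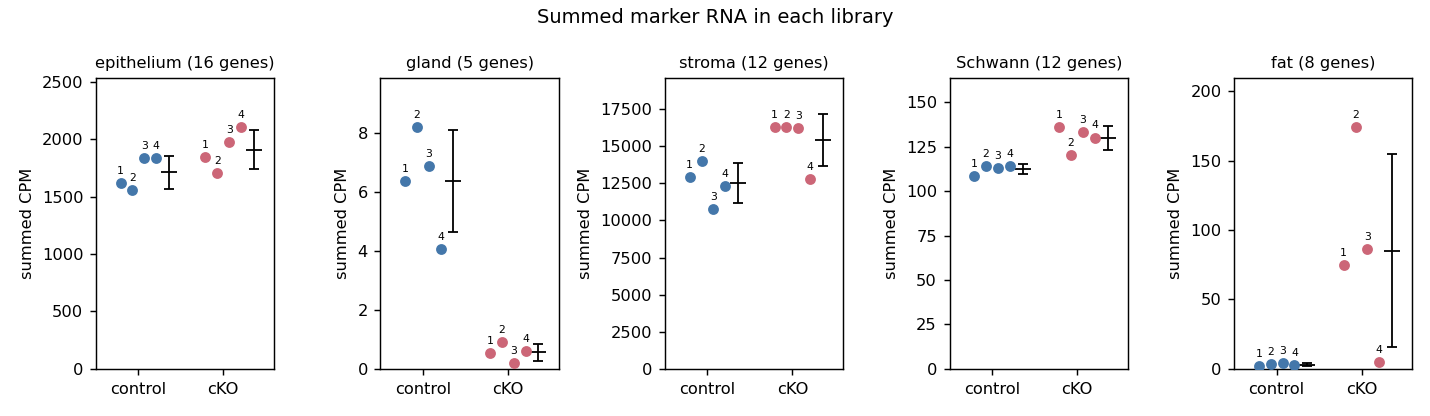
Summed CPM (y axes, linear from 0) of marker genes of 5 cell types in each library, with replicate numbers and mean ± SD over 4 libraries. Gland markers are lower in every cKO library, epithelial markers overlap, and fat markers sum to at least 75.1 CPM in cKO replicates 1, 2 and 3 and to at most 4.66 CPM in the other libraries.

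Schwann cells and endothelium are known sources of *Dhh*. Schwann cell markers summed to 108.4 to 114.4 CPM in control and 120.5 to 136.2 CPM in cKO libraries, and 4 of 11 genes tested were called higher (*Sox10*, *Erbb3*, *Foxd3* and *Cdh19*) and 1 lower (*Egr2*). Of all genes tested 2.62% were called higher and 2.71% lower. Endothelial markers summed to 826.4 to 1027 CPM in control and 847.4 to 1085 CPM in cKO libraries, with overlapping genotypes. Of 9 endothelial genes tested 0 were called in edgeR. At an unadjusted p under 0.05 the count was 4 of 9, all higher, against 11.4% of all genes tested in that direction. The part of these cells in the level of *Dhh* was not tested. The ovary, another source of *Dhh*, was read from 7 markers, of which 3 were tested and did not pass. *Foxl2*, which uterine cells also express, was at 51.9 ± 3.48 CPM in the control mice and 44.6 ± 5.79 CPM in the cKO mice (mean ± SD, n = 4 per genotype). *Inha* was at 4.71 ± 0.613 and 7.15 ± 2.03 CPM and *Cyp11a1* at 0.398 ± 0.194 and 0.897 ± 0.273 CPM in the same order, with unadjusted p-values of 0.00936 and 0.0070 in edgeR, and DESeq2 called *Inha* higher. *Inha* was at 4.52 CPM in cKO replicate 4, within the control range. *Fshr* had 0 reads and *Amh* at most 5.

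Compared between genes, levels are given per kb of exon (CPM divided by the length of all annotated exons in GENCODE M21, which counts exons of every isoform). In control uteri the order was *Gas1* (114.0 CPM per kb), *Cdon* (20.6), *Gli1* (16.0), *Scube1* (8.22), *Ptch1* (4.99), *Ihh* (1.43), *Scube3* (0.620), *Dhh* (0.358) and *Hhip* (0.194). No neighbours in this order overlapped over the 4 control libraries. In cKO uteri *Ihh*, at 0.118 CPM per kb, came after *Scube3* (1.06) and *Dhh* (0.351), and its libraries overlapped those of *Hhip* (0.0696). On this scale the level of *Ihh* was above that of *Dhh* in every control library and below it in every cKO library.

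The rest of the pathway was read from a list of 31 genes, of which 30 were tested. Of these 1 was called, where 5.34% of all genes tested were called, so this call is not read as a result about the list. The gene was *Kif3a*, a motor subunit needed to build the cilium in which the pathway runs, at 69.2 ± 3.07 CPM in the control mice and 58.8 ± 3.84 CPM in the cKO mice (mean ± SD, n = 4 per genotype, log2 fold change -0.24, adjusted p = 0.0437 by edgeR). It was not called when control replicate 1, 3 or 4 or cKO replicate 1 or 2 was left out, and its log2 fold change was -0.10 from cKO replicate 4 alone. The signal transducer *Smo* was at 287.8 ± 9.80 CPM in the control mice and 267.2 ± 13.4 CPM in the cKO mice (mean ± SD, n = 4 per genotype), with a 95% interval of the log2 fold change from -0.23 to 0.01. For *Gli2*, the main activating GLI factor, this interval went from -0.33 to 0.09, for *Gli3*, mainly a repressor, from -0.18 to 0.20, and for *Sufu*, an inhibitor of GLI factors, from -0.34 to 0.09. A 2-fold change is thus outside the interval in each of these transducers. The median log2 fold change was -0.06 over the 30 genes, against 0.00044 over all genes tested.

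**Figure D4:**
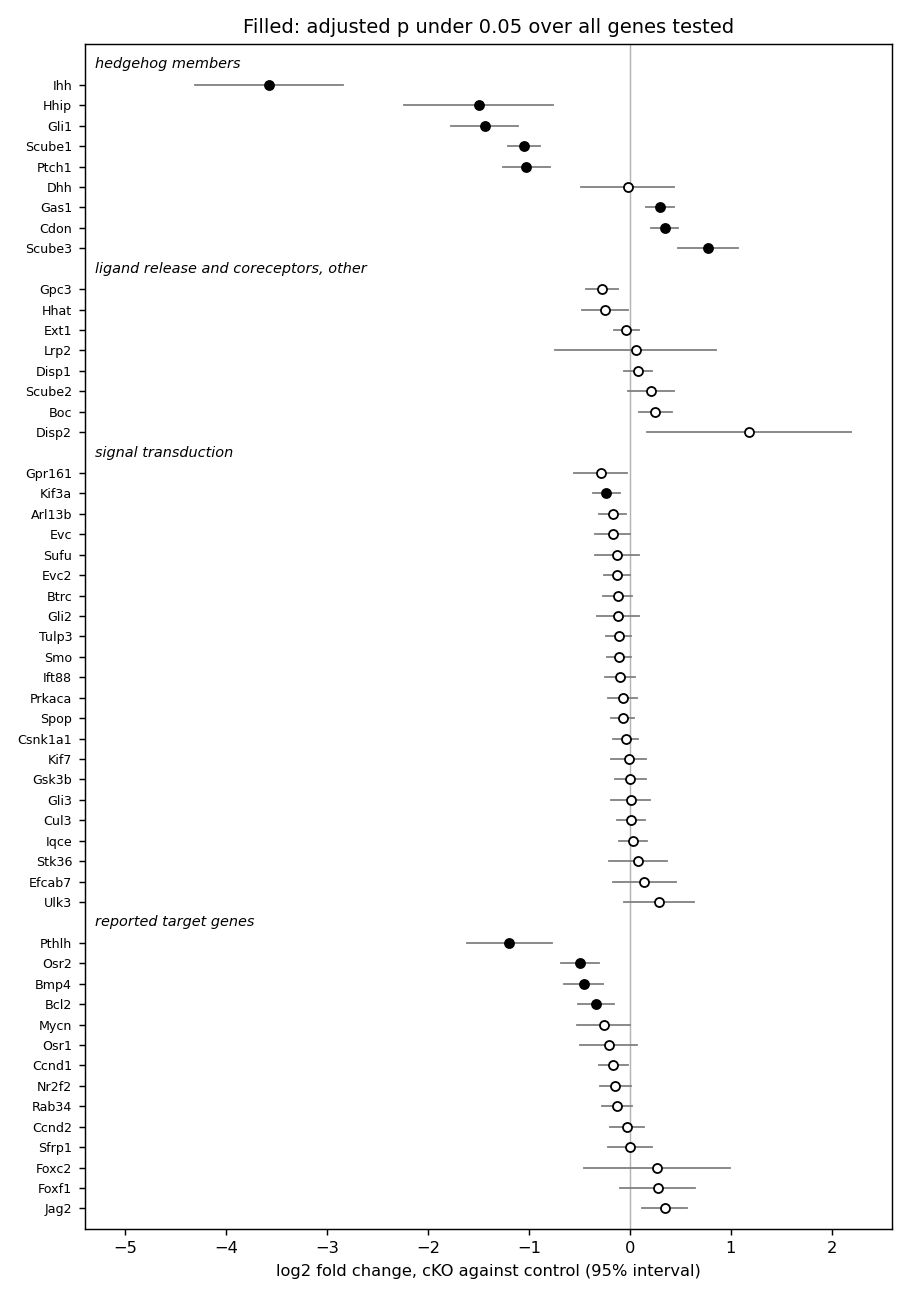
Log2 fold change of cKO against control with its 95% interval (x axis) for the 9 hedgehog genes, 30 other pathway genes and 14 reported targets. Filled circles have an adjusted p under 0.05 in edgeR over all genes tested. *Ihh* lies at -3.58, and the signal transduction genes lie between -0.29 and 0.29.

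Of 18 further genes reported as hedgehog targets in mesenchyme or other tissues, 14 were tested, 4 were called lower and 0 were called higher in cKO uteri by edgeR. Of all genes tested 2.71% were called lower and 2.62% higher. This list too was chosen with earlier results of these data known, so its share is not evidence about the pathway. The Notch ligand gene *Jag2* was the 1 gene of the 14 with a positive log2 fold change and an unadjusted p under 0.05 (0.34, adjusted p = 0.0724 by edgeR), and it was called higher by DESeq2. *Pthlh*, which encodes parathyroid hormone-related protein, fell from 7.71 ± 1.14 to 3.36 ± 1.04 CPM (mean ± SD, n = 4 per genotype), which is -1.19 ± 0.20 on the log2 scale (± standard error, edgeR adjusted p = 0.00383). It was at 6.66, 7.23, 9.31 and 7.63 CPM in control replicates 1 to 4 and at 2.25, 3.21, 3.2 and 4.76 CPM in cKO replicates 1 to 4. The other called genes changed by less than 2-fold. *Osr2*, a zinc finger factor of mesenchyme, had a log2 fold change of -0.50, the growth factor *Bmp4* of -0.46 and the survival gene *Bcl2* of -0.34. From cKO replicate 4 alone these 4 genes had log2 fold changes of -0.69 (*Pthlh*), -0.63 (*Osr2*), -0.53 (*Bmp4*) and -0.36 (*Bcl2*). *Nr2f2*, the stromal COUP factor known to respond to *Ihh* in the pregnant uterus, was at 283.8 ± 24.9 CPM in the control mice and 256.8 ± 14.0 CPM in the cKO mice (mean ± SD, n = 4 per genotype, adjusted p = 0.256 by edgeR). *Foxf1* had a log2 fold change of 0.28 (adjusted p = 0.380 by edgeR) and *Ccnd1* of -0.17 (adjusted p = 0.175 by edgeR). *Foxf2*, *Foxl1*, *Foxd1* and *Foxd2* had at most 9 reads in any library and were not tested.

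Genes known to act upstream of *Ihh* in the uterine epithelium were also read. *Sox17* was higher, at 155.0 ± 15.6 CPM in the control mice and 197.0 ± 13 CPM in the cKO mice (mean ± SD, n = 4 per genotype, log2 fold change 0.35, adjusted p = 0.0211 by edgeR), and from cKO replicate 4 alone its log2 fold change was 0.40. The progesterone receptor gene *Pgr* (log2 fold change -0.31, adjusted p = 0.176 by edgeR), *Gata2* (0.19), *Esr1* (-0.11) and *Arid1a* (0.08) did not pass the test. In *Pgr* cKO replicate 4, at 611.4 CPM, was above all control libraries while the other cKO libraries were at 379.9 to 461.8 CPM.

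The genes whose pattern over the 8 libraries was most like that of *Ihh* were found from the root mean square difference of log2(CPM + 0.1) values, each centred on its gene mean, among 14455 genes with a mean of at least 1 CPM. They were *Dleu7* (0.57), *Cadps* (0.57), *Smim41* (0.59), *Nalcn* (0.63) and *A2ml1* (0.64), all of which were lower in cKO uteri. For *Gli1* the genes reported here are *Plac8* (0.21), *Edil3* (0.22), *Eda2r* (0.24) and *Cited1* (0.24). Genes that differ strongly between genotypes come first by this measure, whatever their function.

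**Figure D5:**
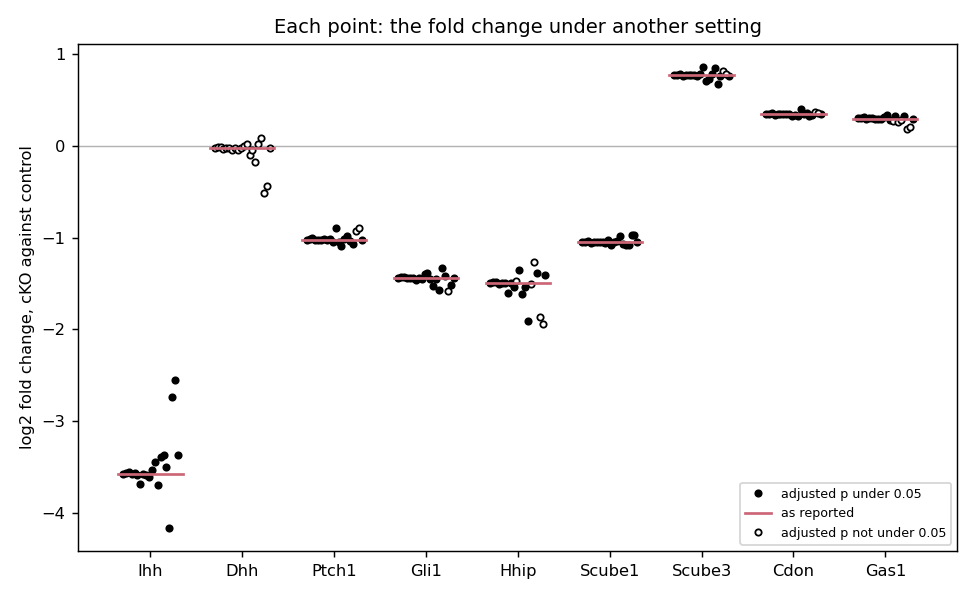
Log2 fold change of cKO against control (y axis) for each of the 9 genes under 20 other settings (points, filled where the adjusted p is under 0.05) and as reported (line). In 8 genes each point has the sign of the reported value, and *Dhh* lies on both sides of 0.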

How the data were processed

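Whole uteri at PD10 from 4 *Ezh2* f/f and 4 *Ezh2* f/f; *Amhr2*-Cre cKO mice were sequenced from TruSeq stranded mRNA libraries. The authors trimmed reads with Trimmomatic, aligned them to GRCm38 with HISAT2 and deposited raw counts per Entrez gene from featureCounts, 1 file per mouse. Fold changes, p-values and normalized counts of the authors were not used. Gene names were taken from RefSeq and the deposited tables (25440 of 27179 genes). Groups follow the sample titles. Genes above 0.2 CPM in at least 4 libraries (16658) were scaled by TMM and tested with edgeR 4.0.16 (quasi-likelihood, robust, R 4.3.3), with Benjamini-Hochberg adjustment over all of them. The standard error is the absolute log2 fold change divided by the root of F. Coordinates and exon lengths were those of GENCODE M21. Ratios of counts (0.5 added to the gene counts in the ratios with *Ihh*) were tested by exact two-sided permutation over 70 arrangements. Counts were checked for libraries deposited in duplicate (none), and the tests were tested on simulated data. Alternatives were DESeq2 1.42.0, other scalings and filters, single libraries left out, cKO replicate 4 alone, the mean log2(CPM + 0.1) of the tested fat markers as a covariate, a replicate block and, for the ratios to markers, the mean log2 CPM of the markers. Depth was 25287141 to 36685807 counts per library.

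The 9 members and all gene lists were chosen with earlier results of these data known. Genes named are the 9 members, called genes of the lists, *Smo*, *Gli2*, *Gli3*, *Sufu* and *Boc*, defining markers and, for *Ihh* and *Gli1*, the 5 nearest genes, of which 1 is not reported here. *Scube2*, *Gpc3*, *Lrp2*, *Nr2f2*, *Foxf1*, *Ccnd1*, *Jag2*, *Inha*, *Cyp11a1* and the regulators of *Ihh* that were not called were named after their values were seen.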

Additional observations from a re-analysis of the deposited data

Results flagged for a closer look

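Outlying libraries were looked for by Dixon's test in 30 groups of 4 values, which were the CPM of the 9 genes and the 6 log2 ratios in each genotype. In 1 of them, *Scube1* in cKO uteri, cKO replicate 1 had 33.2 CPM while the other 3 libraries had 40.4 to 41.3 CPM. The gap was 0.881 of the range, above the 95% critical value for 4 samples. Chance passes this value in about 1 in 20 groups. The outlying library had the larger difference from control, and without it the log2 fold change of *Scube1* was -0.98 (adjusted p = 2.31e-05 by edgeR).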

How the results depend on the processing

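The log2 fold changes of *Ihh* and *Scube1* passed the test in all 20 other settings, and each of the 8 called members kept its sign in all 20. The members called were the same 5 lower and 3 higher with other scalings, filters, DESeq2 and limma-voom. With the mean log2(CPM + 0.1) of the 6 fat markers tested as a covariate 2 members were called lower (*Ihh* and *Scube1*) and 0 higher, and 52 of all genes in place of 889. *Gli1* then had a log2 fold change of -1.58 (adjusted p = 0.0511) and *Ptch1* of -0.92 (adjusted p = 0.0734). With cKO replicate 4 alone 3 members were called lower (*Ihh*, *Gli1* and *Scube1*) and 0 higher, and 38 of all genes. The covariate setting gave 0 calls among the other pathway genes and 0 among the reported targets, and both settings leave fewer degrees of freedom. The covariate was 3.12 to 4.01 in cKO replicates 1, 2 and 3, -1.04 in cKO replicate 4 and -1.55 to -0.769 in controls. Apart from cKO replicate 4 it thus follows genotype, so the covariate fit leans on that library and the settings are not independent checks. The cause was not tested. With a 2-fold minimum 217 genes were called in all, 0 members higher, 0 other pathway genes and 1 reported target (*Pthlh*). DESeq2 called 1510 of all genes and 3 other pathway genes, and without a filter on low counts 2 other pathway genes were called.

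Leaving out each library in turn gave 425 (without control replicate 1) to 1783 (without cKO replicate 4) calls among all genes, with 578 without control replicate 3 and 484, 488 and 538 without cKO replicates 1, 2 and 3. Members called lower numbered 4 to 5, members called higher 2 to 3, other pathway genes 0 to 2 and reported targets 3 to 5. *Kif3a* rests on single libraries in this sense, since no other pathway gene was called when control replicate 1, 3 or 4 was left out, or cKO replicate 1 or 2. *Dhh* went from -0.17 to 0.093 and had either sign. The difference in the log2 ratio of *Ihh* to *Gli1* was -2.68 to -1.95, with p = 0.0571 (exact permutation) without any of the control libraries. That of *Gli1* to *Ptch1* was -0.60 to -0.31, with p = 0.0286 (exact permutation) without cKO replicate 2.

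Control and cKO libraries share replicate numbers, but the deviations of same-numbered libraries had correlations of 0.04, 0.13, -0.03 and 0.22, and 1 of 4 control libraries correlated best with its own number, so the numbers were not taken as pairs. With the replicate block 1240 genes were called, the 5 lower and 3 higher members were the same, and 2 other pathway genes and 5 reported targets were called. Paired sign flips of the ratios gave p = 0.125 (exact), the smallest that 4 pairs allow, and 0.25 for *Gli1* to *Ptch1*. Depth limits *Hhip* and *Ihh* in cKO uteri, which rest on 10 to 29 and 5 to 21 reads per library.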
